A study of Arabidopsis thaliana with 12 samples.

Results

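Among the 3439 features of an Arabidopsis thaliana array, 81 were bright in wild type (WT), still above 0 in the psbs mutant and not raised there. They were chosen by their deposited intensities, with a WT mean of 3 or more over 6 samples and a psbs mean above 0 and at or below the WT mean. The difference between the groups is therefore part of the choice and is described here without a test. The array had recorded total RNA from 12 samples of ecotype Columbia 0, 6 per group. The psbs mutant lacks PSII-S. The labels assign this protein to photosystem I, although it is known as a photosystem II protein. They give no tissue, age or light regime, name no psbs allele, and leave unsaid if the replicates came from different plants. The spread between these samples may therefore be technical.

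PsbS senses the acid pH that builds up in the thylakoid lumen in strong light and switches photosystem II antennae from light use to heat release. The mutant has photosystems and carries out photosynthesis, but cannot make this rapid switch. Nuclear genes supply most chloroplast proteins, and their transcripts include some of the most abundant ones in a green cell. An array signal ranks features by brightness, which depends on the probe as well as on the RNA, so a rank below is a rank of signal and not of transcript number. In such bulk samples, fewer cells of a type and less RNA per cell cannot be told apart.

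Of the 81 features, 15 had a single gene in the platform annotation, 18 had several and 48 had none. The share with a single gene, 18.5%, was close to the 20.1% of all features. Of the single genes 8 are described below, and the remaining 7 are counted but not named. The lists of photosynthesis, chlorophyll, seed and root genes held 96 genes, of which 9 lay on a single-gene feature. Of these 4 were bright in WT, of which 1 was among the 81 and 3 were raised. No seed storage or root marker gene lay on a single-gene feature, so those tissues could not be checked. None of the 81 features had a number that is a multiple of 6, against 7.59% of all features. The same held for the 43 features that were as bright in WT but raised in psbs, of which 0 had such a number.

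The median intensity of a sample ran from 0.304 to 0.379 in WT and from 0.0233 to 0.0361 in psbs, and exact 0 values made up 13.0% to 13.7% of features in WT against 27.0% to 34.9% in psbs. The summed intensity of a sample differed less, at 2972 to 3552 in WT and 2509 to 2674 in psbs. In psbs, replicates 1 and 2 differed from the other 4, and results that rest on them are given with and without them. The median ratio of the psbs mean to the WT mean was 0.113 for the 81 features and 0.120 for the 3070 features with a WT mean above 0. The first of these medians leaves out the bright features that were raised. Every psbs value lay below every WT value for 77 of the 81, against 67.3% of the 3359 features above 0 in any sample. The choice fixed that direction, and nothing is read from the excess.

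In WT the 81 features carried 30.6% of the total signal of a sample (median of 6), and in psbs 8.73%. The 43 features that were as bright in WT but higher in psbs went from 21.4% to 61.5%. The 124 features with a WT mean of 3 or more were the 124 brightest in WT, and this number served as a rank limit. A member kept its rank if its psbs mean was among the 124 highest psbs means. Of the 81 members 13 kept their rank and 68 lost it. All 43 raised features were within the limit in psbs, and the remaining 68 places were taken by features with WT means under 3.

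The 13 that kept their rank were the brighter ones in WT. Their WT means ran from 10.2 to 91.4 with a median of 39.6, against a median of 5.23 and a range of 3.05 to 54.3 for those that lost it. Of the 21 members with a WT mean of 10 or more 13 kept their rank, and of the 60 members under 10 none (0) did. The ratio of psbs to WT had a median of 0.231 in the first class and 0.102 in the second. Both follow in part from the definition, since a high psbs mean was the condition. The last member inside the limit had a psbs mean of 2.95 at rank 124, with no gene listed, and the next below stood at 2.59 and rank 130. At the WT limit, the last member inside had a WT mean of 3.05 and the next feature outside 2.99. The first bright feature left out as raised had a psbs to WT ratio of 1.01, whereas the highest ratio inside was 0.914.

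**Figure D1:**
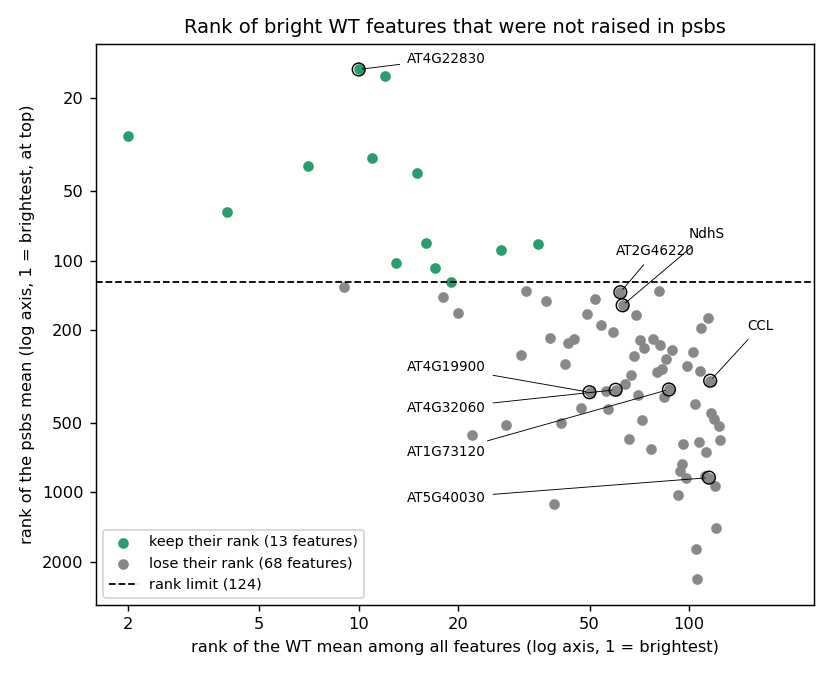
Rank of the WT mean (horizontal) and of the psbs mean (vertical) among all features, both on log axes with rank 1 the brightest, for the 81 members. The 13 green points above the dashed limit of 124 keep their rank, the 68 grey points lose it, and the 8 ringed points are the named genes, of which AT4G22830 alone lies above the limit.

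Among the named genes 1 kept its rank. AT4G22830 is known here by its locus code alone. Its deposited intensity in WT replicates 1 to 6 was 56.6, 56.8, 49.99, 48.6, 37.9 and 34.3. In psbs replicates 1 to 6 it was 38.8, 38.9, 44.3, 41.2, 40.4 and 36.7. The groups overlapped, and the psbs values lay within the range of the WT values. The WT mean was 47.4 ± 9.41 (SD, n = 6) and the psbs mean 40.1 ± 2.60 (SD, n = 6), so that psbs stood at 0.845 of WT. In same-numbered samples psbs was lower in replicates 1 to 4, with ratios of 0.684 to 0.887, and higher in replicates 5 and 6, with ratios of 1.06 and 1.07. Its rank was 9 to 14 in the WT samples and 13 to 16 in the psbs samples, so it stayed near the top of every array.

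The member with the highest ratio, 0.914, had no gene listed, with a WT mean of 42.1 and a psbs mean of 38.5. Its groups overlapped too, but each psbs value was below the WT value of the same number. Of the 81 members, 2 had a psbs value at or above the WT value of the same number. One was AT4G22830, and the other is described below with psbs replicates 1 and 2.

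AT2G46220 and NdhS lay just below the rank limit. AT2G46220 was at 6.01, 6.32, 7.42, 8.52, 4.13 and 4.57 in WT replicates 1 to 6 and at 2.33, 2.20, 2.63, 2.85, 1.94 and 2.15 in psbs replicates 1 to 6. All psbs samples were below all WT samples, and in both groups replicates 3 and 4 were highest and 5 and 6 lowest. The mean was 6.16 ± 1.67 (SD, n = 6) in WT against 2.35 ± 0.336 (SD, n = 6), or 0.382 of it, in psbs. The rank of the mean moved from 62 to 137, and in psbs replicate 4 it stood exactly at the limit of 124. NdhS, also known as CRR31, is a subunit of the chloroplast NADH dehydrogenase-like complex, which passes electrons from ferredoxin back to plastoquinone in cyclic electron flow. It was at 6.19, 6.33, 6.85, 6.95, 5.06 and 5.27 in WT replicates 1 to 6 and at 1.504, 1.42, 2.15, 2.28, 1.92 and 2.18 in psbs replicates 1 to 6. The groups did not overlap, and psbs replicates 1 and 2 held the lowest values. The mean went from 6.11 ± 0.788 to 1.91 ± 0.365 (SD, n = 6 each), a ratio of 0.312, and the rank from 63 to 156.

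CCL (CCR-like, AT3G26740) is known for a short-lived transcript whose level follows the daily cycle. Its intensity was 3.56, 4.63, 3.16, 3.71, 2.22 and 2.62 in WT replicates 1 to 6. In psbs replicates 1 to 6 it was 0.401, 0.490, 0.641, 0.675, 0.577 and 0.635. No psbs value reached a WT value, and psbs replicates 1 and 2 held the lowest values. From a WT mean of 3.32 ± 0.854 (SD, n = 6) and a psbs mean of 0.570 ± 0.105 (SD, n = 6), the psbs to WT ratio was 0.172, above the median of 0.113 for all members. CCL was among the dimmest members in WT, at rank 116, and stood at rank 330 in psbs. The time of day at which samples were taken is not in the labels, and its part in the CCL values was not tested.

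The 4 other named genes had ratios under or near that median, and their psbs values differed most between samples of the same group. AT4G32060 was at 8.50, 7.96, 5.43, 5.74, 5.45 and 5.34 in WT replicates 1 to 6 and at 0.788, 0.739, 0.382, 0.395, 0.3995 and 0.363 in psbs replicates 1 to 6. Replicates 1 and 2 were the highest in both groups, which did not overlap. AT4G19900 was at 6.63, 7.35, 8.49, 8.26, 8.54 and 8.42 in WT replicates 1 to 6. In psbs replicates 1 to 6 it was at 0.235, 0.176, 0.571, 0.617, 0.649 and 0.705. Here replicates 1 and 2 were the lowest in both groups. AT4G32060 averaged 6.41 ± 1.43 among WT samples and 0.511 ± 0.197 among psbs samples (SD, n = 6 each), a ratio of 0.0798. AT4G19900 averaged 7.95 ± 0.779 and 0.492 ± 0.227 (SD, n = 6 each), a ratio of 0.0619. The rank of AT4G19900 went from 50 to 370 and that of AT4G32060 from 60 to 361.

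AT1G73120 had the widest relative range in psbs of the named genes. It was at 4.40, 4.67, 5.14, 4.78, 3.60 and 4.13 in WT replicates 1 to 6, a coefficient of variation of 12.1%. In psbs replicates 1 to 6 it was at 1.37, 1.36, 0.123, 0.122, 0.0329 and 0.0723, a coefficient of variation of 129%. The mean of psbs replicates 1 and 2 was 15.6 times that of replicates 3 to 6, and the psbs mean of 0.513 ± 0.660 (SD, n = 6) lies between the 2 sets. The WT mean was 4.45 ± 0.540 (SD, n = 6), and psbs replicates 3 to 6 alone averaged 0.0875. Its rank was 209 in both psbs replicates 1 and 2, and between 858 and 1775 in the others. 

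AT5G40030 had the lowest ratio of the named genes, 0.0372. It was at 6.04, 4.64, 2.59, 2.60, 2.14 and 2.33 in WT replicates 1 to 6 and at 0.0233, 0.0865, 0.157, 0.203, 0.118 and 0.169 in psbs replicates 1 to 6. Replicates 1 and 2 were the highest in WT, 2.21 times the mean of replicates 3 to 6, and the lowest in psbs, where replicates 3 to 6 averaged 2.94 times as much. Its WT mean was 3.39 ± 1.58 and its psbs mean 0.126 ± 0.0648 (SD, n = 6 each). Its psbs ranks ran from 640 to 1742. WT replicates 1 and 2 also carried it over the WT mean of 3, since its mean over WT replicates 3 to 6 was 2.41.

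**Figure D2:**
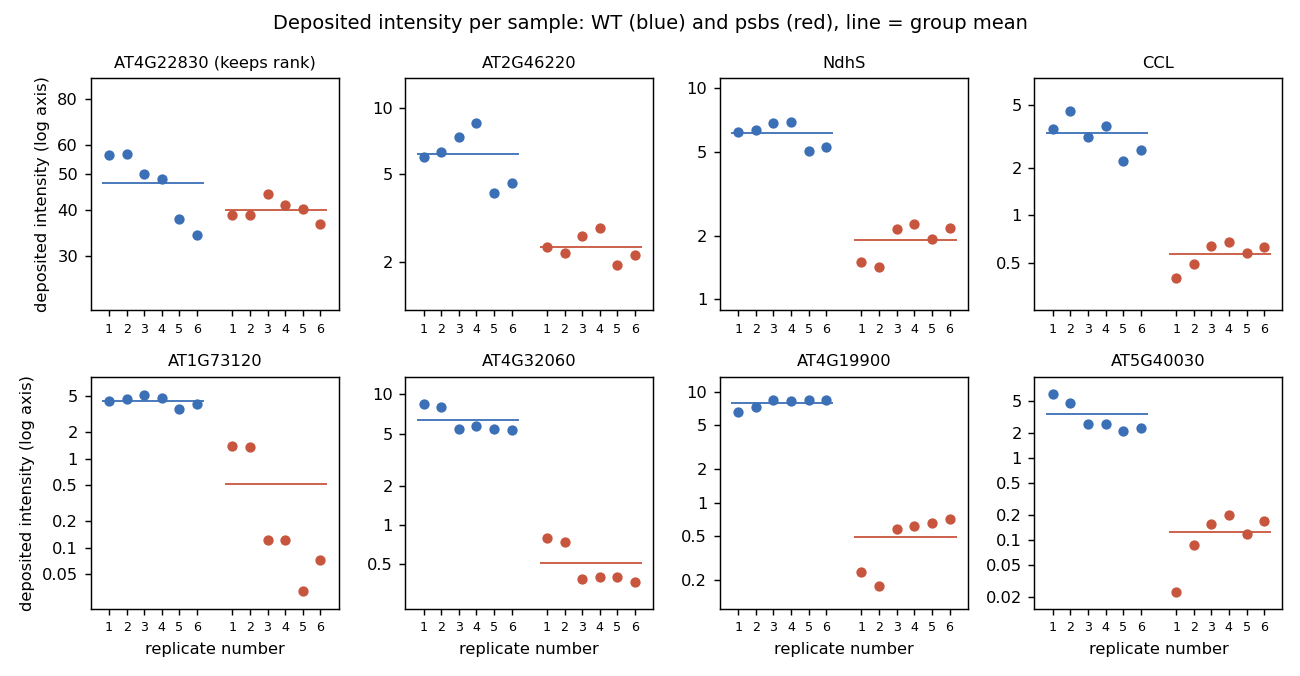
Deposited intensity (log axis, arbitrary units, a separate axis for each gene) of the 8 named genes in each of the 6 WT (blue) and 6 psbs (red) samples, with a line at each group mean. AT4G22830 overlaps between the groups, the other 7 do not, and psbs replicates 1 and 2 stand apart for AT1G73120 (1.37 and 1.36 against at most 0.123), AT4G32060, AT4G19900 and AT5G40030 (0.0233 and 0.0865 against at least 0.118). They are also the lowest psbs values for NdhS (1.504 and 1.42 against at least 1.92) and CCL (0.401 and 0.490 against at least 0.577).

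For 5 of the named genes the direction turned under 1 of the scalings tried, division of each sample by its own median. As deposited the log2 ratio of psbs to WT means was -0.24 for AT4G22830, -1.39 for AT2G46220, -1.68 for NdhS, -2.54 for CCL and -3.12 for AT1G73120. After the division they were higher in psbs, at 3.23, 2.08, 1.74, 0.90 and 0.65. AT4G32060, AT4G19900 and AT5G40030 were at -3.65, -4.01 and -4.75 as deposited and still below 0 after that division, at -0.068, -0.69 and -1.35. This division moves all features of a sample by the same factor, so it shows only which features fell less than the sample medians did. It put 49 of the 81 members higher in psbs (60.5%), against 57.0% of the 3070 features with a WT mean above 0, and nothing particular to the members is read from it. After quantile scaling or cyclic loess none (0) of the 81 was higher.

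The rank in single samples describes how evenly the samples share in the classes. Members and classes were set by the means of these same samples, so the counts below follow in part from the choice. Of the 13 members that kept their rank by the mean, 9 were within the limit in all 6 psbs samples. Of the 68 others, 7 were within it in at least 1 psbs sample, and 61 of the 81 members were within it in none. Between 13 and 16 of the members were within the limit in a psbs sample, against 75 to 78 in a WT sample. The median rank of the 68 that lost their rank was 73.5 to 78.5 in the WT samples and 330.5 to 404 in the psbs samples. Of these 68, 45 were beyond rank 248, which is 2 times the limit, and 5 were beyond rank 1000. Across the 81 members, WT and psbs means had a Spearman correlation of 0.69. The points share the same 12 samples, and the choice of members bounds one mean by the other.

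The class of a few members rested on psbs replicates 1 and 2. A member with no gene listed had a WT mean of 21.8 and kept its rank by its psbs mean of 4.56. It was at 13.0 and 14.1 in psbs replicates 1 and 2 and at 0.0557, 0.104, 0.107 and 0.0359 in replicates 3 to 6. Another without a gene, with a WT mean of 4.76, was at 7.52 and 6.68 in psbs replicates 1 and 2 and listed at 0 in the other 4. Its mean was not raised, although its values in psbs replicates 1 and 2 were above that WT mean. Without psbs replicates 1 and 2 there were again 81 members, 80 of them the same. Of these, 16 kept their rank, of which 12 also kept it with all samples.

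**Figure D3:**
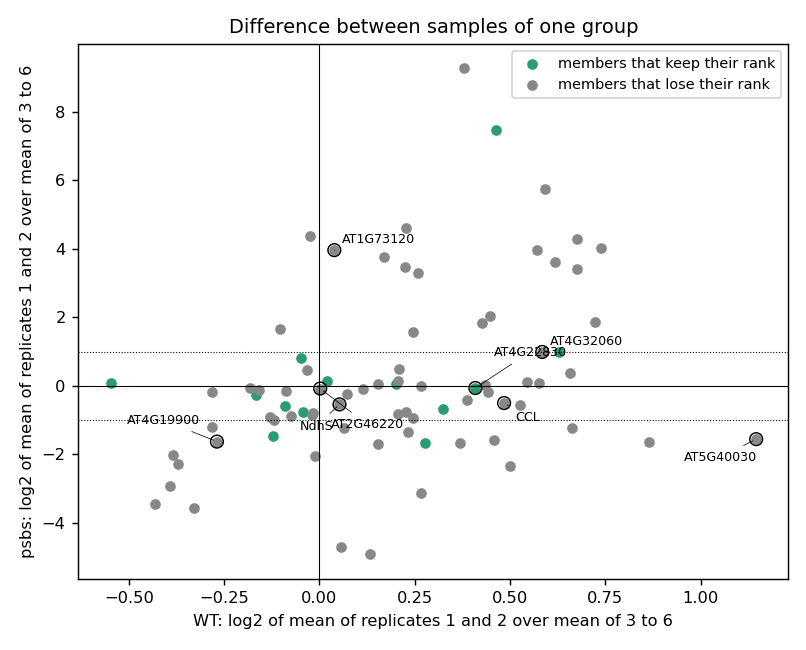
Log2 of the mean of replicates 1 and 2 over the mean of replicates 3 to 6, in WT (horizontal) and in psbs (vertical), for the 81 members, with named genes ringed and dotted lines at a 2-fold difference in psbs. In psbs 41 members lie at or beyond a 2-fold difference, 19 higher and 22 lower in replicates 1 and 2, against 1 member in WT. The share of all features this far apart was not counted, and the 2 axes have different ranges.

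Some consecutive numbers went together. Over the 81 members, log2 deviations from the group mean correlated at 0.84, 0.79 and 0.65 for WT replicates 1 and 2, 3 and 4, and 5 and 6, and at most 0.0075 for other WT samples. In psbs the correlations were 0.97, 0.64 and 0.56, but reached 0.79 between other psbs samples. Over all features they were lower, at 0.46, 0.22 and 0.26 in WT and 0.58, 0.17 and 0.16 in psbs. Between other samples of a group they then reached at most 0.023 in WT and 0.13 in psbs. These are descriptions, since the points share the same samples. In psbs, replicates 1 and 2 were both the highest 2 or both the lowest 2 of the group for 64 of the 81 members (79.0%), against 37.4% of the 3359 features. For 25 they were highest and for 39 lowest. The corresponding counts were 26 members for psbs replicates 3 and 4 (32.1%, against 16.1% of all features) and 17 for psbs replicates 5 and 6 (21.0%, against 15.7%). In WT they were 49 for replicates 1 and 2 (60.5%, against 45.0%), 28 for replicates 3 and 4 (34.6%, against 16.6%) and 46 for replicates 5 and 6 (56.8%, against 38.3%). The 43 raised features did the same in 29 cases for psbs replicates 1 and 2 (67.4%), 18 for replicates 3 and 4 (41.9%) and 8 for replicates 5 and 6 (18.6%). In WT their counts were 20, 16 and 24 (46.5%, 37.2% and 55.8%). For psbs replicates 3 and 4 and WT replicates 3 and 4 these shares were above those of the members. Dim features, with many 0 values in psbs, make up most of the comparison set. In psbs, 41 members were at least 2-fold apart between replicates 1 and 2 and the others. They were 3 of the 13 that kept their rank and 38 of the 68 that lost it. How many of all features, or of the raised ones, lay that far apart was not counted. Nothing particular to the members is therefore read from these counts. The labels do not say what consecutive numbers share.

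Members and classes were chosen by group means and not by scatter, but from these same values, so their scatter is not independent of the choice. The scatter of samples was measured per sample as the median absolute log2 deviation of the members from the mean of the other samples of the group. Its mean was 0.166 ± 0.0337 (SD, n = 6) for WT samples, against 0.598 ± 0.253 (SD, n = 6) for psbs samples. psbs replicates 1 and 2 were at 0.953 and 0.891, replicates 3 to 6 at 0.392 to 0.477 and the WT samples at 0.127 to 0.205. Members that lost their rank were at 0.168 in WT and 0.693 in psbs, and those that kept it at 0.155 and 0.324. The 43 raised features, at 0.154 and 0.209, differed least. For the 1407 features without any 0 value the scatter was 0.153 ± 0.0167 and 0.572 ± 0.136 (SD, n = 6 each). This passed a two-sided exact permutation test (p = 0.00216, which is the lowest that 12 samples allow). The difference was 0.42 for these features and 0.43 for the members, of which 8 had a 0 value. Over only the members without any 0 value, and with no floor, it was 0.35.

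Without psbs replicates 1 and 2 that difference was gone for the members. Their scatter was then 0.149 ± 0.0190 (SD, n = 4) in psbs, 0.017 under the WT value (a difference of -0.017). Over the 1407 features a difference of 0.10 was left (exact permutation test, two-sided, n = 4 and 6, p = 0.00476, the smallest these numbers allow). That p counts consecutive replicates as separate samples, although some went together, and they were not averaged for this comparison. With all 12 samples and consecutive numbers averaged, 3 values a group gave p = 0.1 over the 1407 features in the exact permutation test, the smallest possible. The median coefficient of variation of deposited values over the 81 members was 15.2% in WT and 38.5% in psbs, and it was the larger in psbs for 64 of them (79.0%). Over all features the median was 15.9% in WT, among those with a WT mean above 0, and 85.7% in psbs, among those with a psbs mean above 0. It was the larger in psbs for 2642 of the 2891 features with a value above 0 in both groups (91.4%). Over psbs replicates 3 to 6 alone the median was 10.6% for the members, below the 15.2% of WT, and it was the larger in psbs for 35 of them. Among all features it was 68.6% over these 4 samples, and the larger in psbs for 2207 features.

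The single genes of the members lay on all 5 chromosomes by their locus codes, with 3, 3, 2, 6 and 1 on chromosomes 1 to 5. Chromosome 4 thus held 6 of the 15, against 17.4% of the 690 single-gene features matched to a locus. These 6 include AT4G22830, NdhS, AT4G32060 and AT4G19900. With 15 genes this is a description only. Among the 8 raised single-gene features none (0) was on chromosome 4.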

How the data were processed

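The deposited table holds linear intensities between 0 and 100 for each feature in each sample. How they were scanned, corrected for background or scaled, and what a 0 stands for, is not given in the sources used here. Array intensities have no read depth, so the number of samples limits the precision. Sample titles gave groups and replicate numbers. Genes were named through the platform annotation, matched to TAIR10.1 for names only (690 of 692 single-gene features); no genome build was named.

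Members, classes and lists were chosen with earlier results of these data known. Features were ranked by deposited intensity within samples or by group means, which needs no scaling within a sample. Log2 values used a floor at the 5th percentile of positive values (0.0115), and each sample's median deviation over all features was removed before scatter was measured. The planned test of the members' scatter was replaced by the same exact permutation test over the 1407 features without any 0 value. The reason was that the members were chosen from these samples. Features with a 0 value in any sample were not part of that test. Scatter values within a group share their mean, so that p is approximate. The procedure was tested on simulated data with independent noise in each sample. Alike consecutive samples were not simulated, so that trial cannot show how they affect the p.

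Named genes are the members of a single gene: up to 8 of best psbs rank among those that kept it, up to 8 with the largest loss, those nearest the limit and list members. The 8 genes left out by the choice of members were not named. All 8 that remained fell under this rule. No gene descriptions or sequences were used here; the roles given for PsbS, NdhS and CCL are background. Alternatives changed the WT limit, the rank limit, the scaling, the floor, the features ranked and the samples. Those of single genes were chosen after seeing the data. Python 3.11.15, matplotlib 3.10.9 and, for cyclic loess, limma 3.58.1 in R 4.3.3 were used.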

Additional observations from a re-analysis of the deposited data

Results flagged for a closer look

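Samples with a wide gap to the rest of their group were sought for the 8 named genes and for 3 measures per sample. This made 22 groups of 6, and chance would pick about 5% of them. There was 1 such value: in WT replicate 6, 78 of the 81 members were within the 124 brightest features, against 75 or 76 in the other WT samples. The pairs of alike samples described above, such as psbs replicates 1 and 2, cannot be found in this way, because each has a near neighbour.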

How the results depend on the processing

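The number of members was 81 and stayed within 1.5 times this in 18 of 20 alternatives; it was 130 with a WT mean of 2 or more and 32 with each sample divided by its median. Leaving out 1 sample gave 79 to 85. The number that kept their rank was 13 and stayed within 1.5 times this in 19 of 23 alternatives, with 12 to 15 when 1 sample was left out. It was 26 with a WT mean of 2 or more, 36 with a rank limit of 248, 32 after cyclic loess and 2 with each sample divided by its median, where most of the 13 were no longer members because they counted as raised. AT4G22830 kept its rank in 19 of 20 settings that redefine the members, and was no member in the remaining one. The members' difference in scatter, 0.43, was 0.26 to 0.52 when 1 sample was left out. It was 2.39 percentage points on the scale of percentile ranks, another unit, and -0.017 without psbs replicates 1 and 2. With the replicate number as a block the difference is by arithmetic the same, 0.43 for the members and 0.42 over the 1407 features. Only the test changes, and over the 1407 features it gave the smallest p that 6 pairs can give (exact sign change test, two-sided, n = 6 pairs, p = 0.0312). Whether numbers pair WT and psbs samples is unclear: deviations of same-numbered samples correlated at 0.0774 to 0.155 over the 3359 features, above 0.1 in 3 of 6 pairs, and at 0.21 to 0.35 over the members, above 0.1 in all 6. Each WT sample correlated best with the psbs sample of its number over all features, and 3 of 6 did over the members. The log2 ratios of named genes moved by less than 1 SD in 121 of 136 alternatives, most of which left out 1 sample. This SD is the root of the summed log2 variances of both groups, a wide limit for AT1G73120. The ratio of AT1G73120 was -3.12 with all samples and -5.67 without psbs replicates 1 and 2. With group medians it was -5.21, which still counted as within 1 SD. With each sample divided by its median, every named gene moved by more than 1 SD. The causes were not tested.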
